A study of Mus musculus with 19 samples.

Results

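Calcium handling of the sarcoplasmic reticulum was examined through 10 genes, given as a list of names and read with 13 probes, among the 30214 gene names and 39429 probes on the array. They are the pump regulators sarcolipin (Sln) and phospholamban (Pln), the calcium pumps Atp2a1 and Atp2a2, the calcium-binding proteins Casq1, Casq2, Srl and Pvalb, and the channel subunits Ryr1 and Cacna1s. Atp2a2, Cacna1s and Pvalb have 2 probes each and the other genes 1. The genes were chosen by function and with their difference in log2 signal between AR113Q and control mice on normal chow already known, so values of that comparison are a description and nothing is read from its calls. The mice on the high-fat diet share no array with it and were tested, but in a joint fit whose estimate of the spread uses all groups, and their results were also known when the genes were listed.

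Quadriceps RNA came from male congenic C57Bl6J mice at 180 days of age. Mice labelled AR113Q carry a knock-in allele of the androgen receptor with an expanded polyglutamine tract, a model of spinal and bulbar muscular atrophy (SBMA), and mice labelled CTR are wild type. From 40 days of age mice ate either purified normal chow (NCD) or high-fat food (HFD). There were 5 AR113Q-NCD, 5 CTR-NCD, 5 AR113Q-HFD and 4 CTR-HFD samples, 19 arrays in all. The knock-in acts in every tissue that expresses the receptor, so that muscle and motor neurons of these mice cannot be told apart as the origin of a difference. The labels do not say whether each sample is 1 mouse, and p-values measure the spread between these samples.

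In a resting muscle fiber calcium is stored in the sarcoplasmic reticulum. Depolarization is sensed by the dihydropyridine receptor in the transverse tubules, whose pore subunit is encoded by Cacna1s, and the ryanodine receptor Ryr1 then releases calcium to the myofilaments. SERCA pumps return it, SERCA1 (Atp2a1) in fast fibers and SERCA2 (Atp2a2) in slow fibers and heart, and the small membrane proteins sarcolipin and phospholamban bind and slow them. Inside the store calcium is held by calsequestrin (Casq1 in skeletal muscle fibers, Casq2 in slow fibers and heart). Parvalbumin (Pvalb) buffers calcium in the cytosol of fast fibers.

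The probes are 60 bases long and are shown by their first 30 bases, 5′ to 3′, for the genes on which the results turn, with positions on the mm9 build as the files give them. No gene annotation of that build was used here, so the exon or UTR is not given. Capitals are not used in the probes.
Sln, chr9:53701574-53701633, plus strand: gccttagctttgttccctagcaaatgtact
Atp2a1, chr7:133591703-133591762, minus strand: tgccgtggaggaaggccgcgccatctacaa
Atp2a2 probe 1, chr5:122903704-122903763, minus strand: gttccacactgtattattgtaacttattta
Atp2a2 probe 2, chr5:122910660-122910719, minus strand: tcgagttgaaccttcccacaagtctaagat
Casq1, chr1:174140602-174142105, minus strand, a span of 1504 bases: caaataggagttgtcaatgttacagacgcg
Casq2, chr3:101949827-101949884, plus strand: actcagacccaagcctttggatgtcaatta
Pvalb probe 1, chr15:78021549-78021608, minus strand: ctccaatgacactctatcaattgcttttga
Pvalb probe 2, chr15:78021951-78022010, minus strand: agtttgtttgtgttattttttactccccca

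The paired probes of Atp2a2 and Pvalb are shown because they do not read the same stretch. Atp2a2 probe 2 is listed with both mRNA entries of the gene and probe 1 with only 1 of them. All 13 probes passed the filter on dim signals, and all were well above background on every array except Pln, which was on 18 of 19. No probe of the list was saturated on any array. Values below are log2 signals, that is log2 of the processed Cy3 signal minus the 75th percentile of the array, so that 0 is the brightness of the 75th percentile. Levels of different probes are not set against each other, since probes differ in brightness for the same amount of RNA.

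Sarcolipin differed most. Across replicates its log2 signal was 1.78, 1.23, 0.62, 0.70 and -0.93 in the CTR-NCD samples and 3.86, 4.51, 3.82, 3.62 and 4.60 in the AR113Q-NCD samples. With the HFD it was 1.27, -1.65, 2.73 and 1.19 in CTR and 5.13, 4.25, 4.46, 3.86 and 5.42 in AR113Q mice. On each diet all AR113Q samples lay above all CTR samples. Ordered by mean level, CTR-NCD came lowest at 0.68 ± 1.01 (SD, n = 5), then CTR-HFD at 0.88 ± 1.83 (SD, n = 4), AR113Q-NCD at 4.08 ± 0.44 (SD, n = 5) and AR113Q-HFD at 4.62 ± 0.64 (SD, n = 5). Neighbours in this order that share a genotype had overlapping ranges. In bulk RNA, fewer cells of a type and less RNA per cell cannot be told apart, here and below.

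On the NCD, the comparison through which the genes were listed, the Sln difference was 3.40 (SE 0.63), a 10.6-fold higher level, rank 2 among rises of all 32026 probes tested. For the HFD it was 3.74 (SE 0.67, 95% confidence interval 2.32 to 5.16), 13.4-fold higher, rank 3 among rises, with an adjusted p of 0.000856 in the limma fit with Benjamini-Hochberg adjustment. Fitted on the HFD samples alone, the adjusted p was 0.0196. Within slides, each of which held samples of several groups, the AR113Q minus CTR difference was positive on 5 of 5 slides on the NCD (2.08 to 5.53) and on 4 of 4 on the HFD (1.73 to 5.90).

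**Figure D1:**
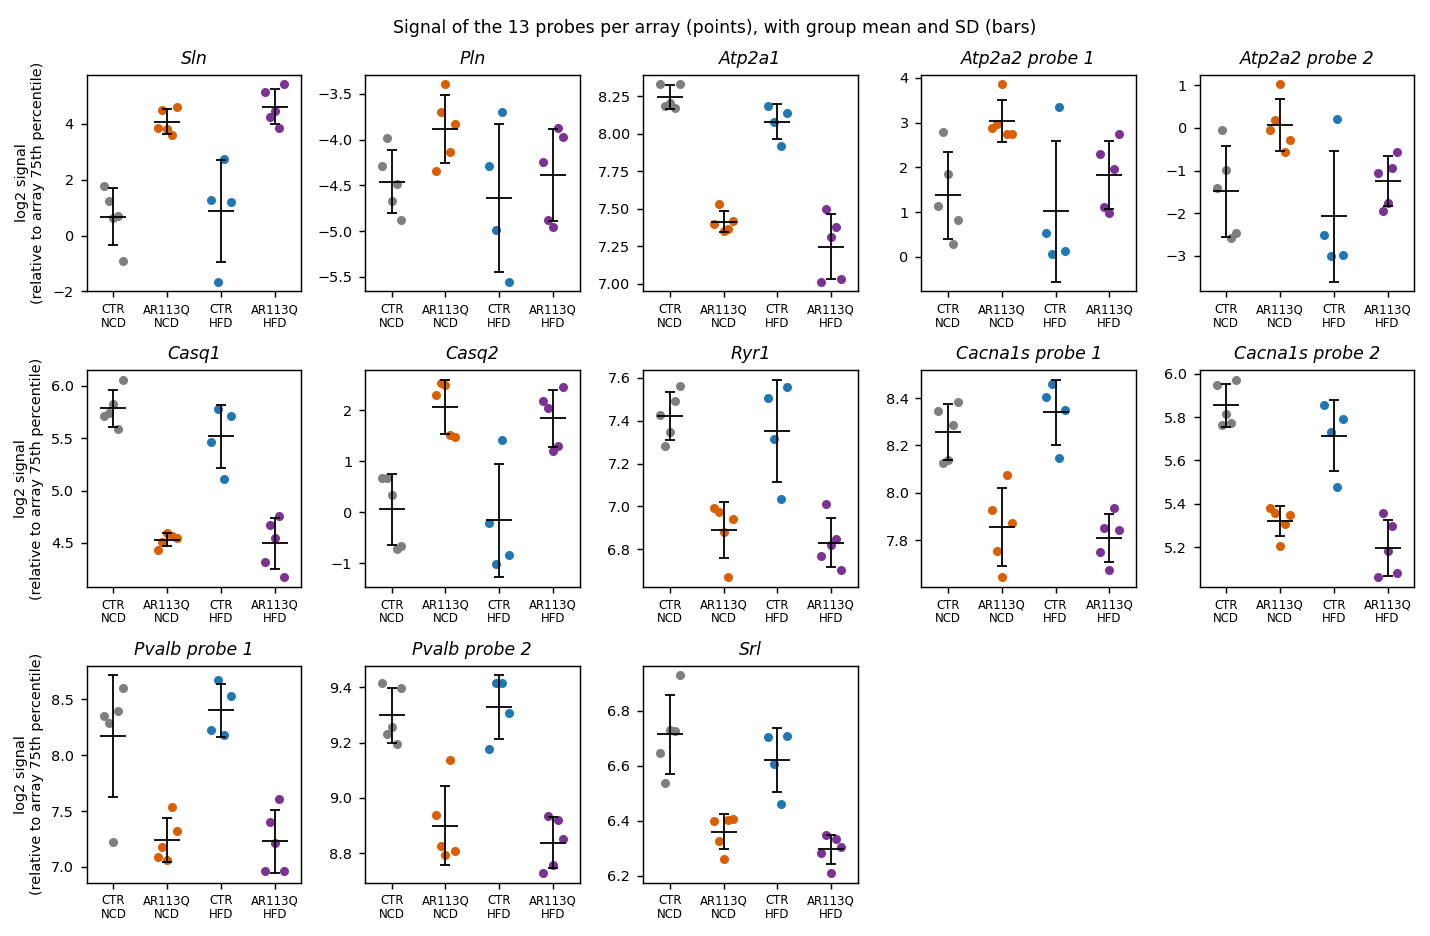
Log2 signal (log2 of the processed signal minus the 75th percentile of the array) of the 13 probes in each of the 19 samples, by group, with the group mean. Every AR113Q sample lies above every CTR sample of the same diet for Sln and below it for Atp2a1, Casq1, Ryr1, both Cacna1s probes, Pvalb probe 2 and Srl.

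Phospholamban, the related regulator of SERCA2 best known from heart and slow muscle, gave a dim signal and did not pass the test. On the NCD its log2 signal lay between -4.88 and -3.98 in CTR mice (median -4.48) and between -4.34 and -3.40 in AR113Q mice (median -3.84). With the HFD the limits were -5.55 and -3.70 in CTR mice and -4.95 and -3.88 in AR113Q mice, and the genotypes overlapped on both diets. The AR113Q minus CTR difference was 0.58 (SE 0.31) on the NCD. For HFD-fed mice it was 0.25 (SE 0.33, interval -0.45 to 0.95, adjusted p = 0.682 by limma).

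Atp2a1, the fast-fiber pump, was lower in AR113Q muscle. It read 8.33, 8.18, 8.20, 8.17 and 8.33 in CTR-NCD and 7.40, 7.53, 7.35, 7.37 and 7.42 in AR113Q-NCD samples. In HFD-fed mice it read 8.18, 8.08, 7.92 and 8.14 in CTR and 7.01, 7.50, 7.31, 7.38 and 7.03 in AR113Q samples. The groups did not overlap on either diet. The difference was -0.83 (SE 0.09) on the NCD, a 1.78-fold lower level. On the HFD Atp2a1 fell by 0.83 (SE 0.09) on the log2 scale, 1.78-fold lower, with an adjusted p of 1.74e-05 by limma, and the difference was negative on every slide that held both genotypes.

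Atp2a2, the slow-fiber and heart pump, varied widely among samples of each group. Probe 1 read 1.13, 2.80, 1.84, 0.29 and 0.83 in CTR-NCD and 2.88, 2.97, 3.86, 2.74 and 2.75 in AR113Q-NCD samples. With the HFD, probe 1 read 0.53, 0.06, 3.35 and 0.13 in CTR and 2.29, 1.12, 0.98, 1.97 and 2.75 in AR113Q samples. Groups of the same diet overlapped, on the NCD through CTR replicate 2 and on the HFD through CTR replicate 3, which lay above all AR113Q-HFD samples. Probe 2 followed probe 1 closely (r = 0.97 over 19 arrays, after subtraction of the group means). The NCD difference was 1.66 (SE 0.59) for probe 1 and 1.55 (SE 0.59) for probe 2.

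On the HFD the Atp2a2 difference did not pass the test, with 0.80 (SE 0.62, interval -0.51 to 2.12, adjusted p = 0.444) for probe 1 and 0.81 (SE 0.63, interval -0.51 to 2.14, adjusted p = 0.437) for probe 2 by limma. CTR-HFD replicate 3 decided this call. Without it the differences were 1.58 (adjusted p = 0.0343) and 1.57 (adjusted p = 0.0402). Within slides, probe 1 differed by 0.16 to 2.45 on the NCD (5 of 5 positive) and by -2.37 to 2.62 on the HFD (3 of 4 positive).

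**Figure D2:**
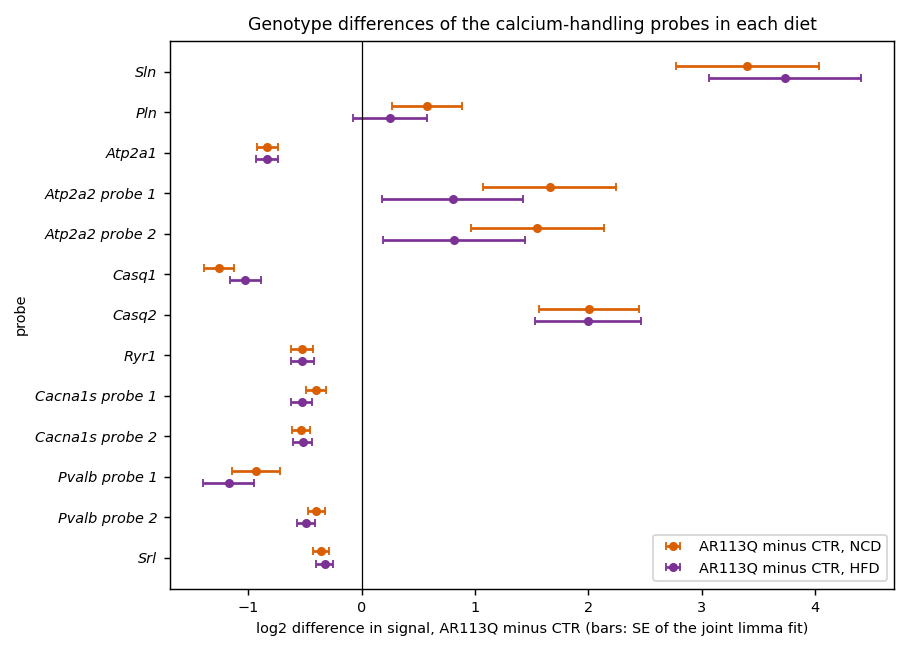
AR113Q minus CTR difference in log2 signal for each of the 13 probes on the NCD and on the HFD, with bars of 1 standard error from the joint limma fit. Sln stands at 3.40 and 3.74 and Casq2 at 2.01 and 2.0, and the 8 probes of Atp2a1, Casq1, Ryr1, Cacna1s, Pvalb and Srl lie below 0 on both diets.

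The calsequestrins, the main calcium-binding proteins inside the store, went opposite ways. Casq1, the skeletal muscle form, read 5.71, 5.74, 5.83, 5.58 and 6.06 in CTR-NCD samples. AR113Q-NCD samples read 4.43, 4.50, 4.59, 4.57 and 4.55. In HFD-fed mice Casq1 read 5.47, 5.78, 5.12 and 5.72 in CTR and 4.31, 4.68, 4.55, 4.76 and 4.17 in AR113Q samples. The groups did not overlap on either diet. The NCD difference was -1.26 (SE 0.13), 2.39-fold lower. On the HFD Casq1 fell by 1.03 (SE 0.14) on the log2 scale, 2.04-fold lower, with an adjusted p of 7.45e-05 by limma, and it was lower within every slide that held both genotypes.

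Casq2, found in slow fibers and heart, read 0.67, 0.66, 0.34, -0.72 and -0.66 in CTR-NCD samples. AR113Q-NCD samples read 2.29, 2.55, 2.50, 1.52 and 1.47, with no overlap. With the HFD, Casq2 read -0.21, -1.02, 1.43 and -0.84 in CTR and 2.19, 2.04, 1.21, 1.30 and 2.47 in AR113Q samples, and CTR-HFD replicate 3 lay above 2 of the AR113Q samples. The difference was 2.01 (SE 0.44) on the NCD, 4.01-fold higher. On the HFD Casq2 rose by 2.0 (SE 0.47), or 4.0-fold, with an adjusted p of 0.00611 by limma. Within slides the HFD difference was positive on 3 of 4 slides, and on the slide of CTR-HFD replicate 3 it was -0.21. Without that replicate the difference was 2.53.

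Sarcalumenin (Srl), a calcium-binding glycoprotein of the store, had the smallest difference of the called probes. On the NCD it lay between 6.54 and 6.93 in CTR and between 6.26 and 6.41 in AR113Q mice, and on the HFD between 6.46 and 6.71 in CTR and between 6.21 and 6.35 in AR113Q mice, with no overlap between genotypes on either diet. The difference was -0.35 (SE 0.07) on the NCD and -0.32 (SE 0.07) on the HFD, 1.25-fold lower with an adjusted p of 0.00560 by limma on the HFD.

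Parvalbumin was read by 2 probes that differed in size of effect. Probe 1 read 8.35, 8.28, 7.22, 8.40 and 8.60 in CTR-NCD and 7.09, 7.18, 7.06, 7.54 and 7.32 in AR113Q-NCD samples, and CTR-NCD replicate 3 fell among the AR113Q values. HFD-fed mice gave 8.23, 8.67, 8.18 and 8.53 in CTR and 6.96, 7.40, 7.21, 7.61 and 6.96 in AR113Q samples, with no overlap. Its difference was -0.93 (SE 0.21) on the NCD and -1.17 (SE 0.23) on the HFD, 2.25-fold lower on the HFD with an adjusted p of 0.00149 by limma. Probe 2 lay between 9.20 and 9.41 in CTR and between 8.79 and 9.14 in AR113Q mice on the NCD, and between 9.18 and 9.42 in CTR and between 8.73 and 8.93 in AR113Q mice on the HFD. Its differences of -0.40 (SE 0.08) and -0.49 (SE 0.08, adjusted p = 0.000492 by limma on the HFD) were smaller, and the probes followed each other loosely across arrays (r = 0.43 after subtraction of the group means).

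The release machinery, read through Ryr1 and Cacna1s, was also lower in AR113Q muscle at this scaling. Some HFD calls of both genes were lost under other scalings, as given below. Ryr1, the release channel of the store, read 7.42, 7.28, 7.35, 7.49 and 7.56 in CTR-NCD and 6.99, 6.98, 6.88, 6.67 and 6.94 in AR113Q-NCD samples, and 7.03 to 7.56 in CTR-HFD against 6.71 to 7.01 in AR113Q-HFD samples. The genotypes did not overlap on either diet. The Ryr1 difference was -0.53 (SE 0.10) on the NCD and -0.52 (SE 0.10) on the HFD, 1.44-fold lower with an adjusted p of 0.00189 by limma on the HFD.

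Cacna1s, the voltage sensor of the transverse tubule, lay between 8.13 and 8.39 in CTR and between 7.64 and 8.07 in AR113Q mice on the NCD with probe 1, and between 8.15 and 8.46 in CTR and between 7.67 and 7.94 in AR113Q mice on the HFD. With probe 2 the limits were 5.77 and 5.97 in CTR and 5.21 and 5.38 in AR113Q mice on the NCD, and 5.48 and 5.85 in CTR and 5.06 and 5.36 in AR113Q mice on the HFD. Neither probe overlapped between genotypes on either diet. The differences were -0.40 (SE 0.09) and -0.53 (SE 0.08) on the NCD, and -0.53 (SE 0.09, adjusted p = 0.000707) and -0.52 (SE 0.08, adjusted p = 0.000365) on the HFD by limma. Each of these 2 genes was lower within every slide that held both genotypes.

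In counts, 2 of the 13 probes were called higher and 8 lower on the HFD at an adjusted p under 0.05, where 8% of all 32026 probes tested were called higher and 9.93% lower. With a fold of at least 1.5 or at most 0.6 added, 2 were higher and 3 lower, where 2.9% and 1.85% of all probes were. All AR113Q-HFD samples lay above all CTR-HFD samples for 1 probe and below them for 8, where 7.41% and 8.3% of all probes did so. The median difference of the 13 probes was -0.49 on the HFD and that of all probes -0.07. On the NCD the counts were likewise 2 higher and 8 lower, where 8.29% and 9.28% of all probes were called, and with the fold limits 2 and 3, where 2.3% and 2.03% were. All samples of 1 genotype lay above for 2 probes and below for 7, where 7.31% and 8.29% of all probes did. Nothing is read from these counts, since that comparison chose the genes.

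The falls must be read beside the brightness of the probes. Among all probes tested, the brightest tended to be lower in AR113Q muscle at this scaling. Of the 110 probes with a mean log2 signal above 8, 99 (90%) were called lower on the HFD and none higher, with a median difference of -0.45. Of those between 6 and 8, 36.8% were called lower, and of those between 4 and 6, 26.7%. On the NCD the shares were 74.5%, 24% and 21.5%. What part this has in the falls described above was not tested.

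Pvalb probe 2 and Cacna1s probe 1 belong to the brightest range, where 39.1% and 20.9% of probes had a lower difference than theirs on the HFD. Srl and Ryr1 lie between 6 and 8, where 25% and 12.3% of probes were lower than they were. In the same range 1.53% of probes were lower than Atp2a1 and 0.511% lower than Pvalb probe 1. Both had a mean signal of 7.73, near the top of a range with a median signal of 6.78. They were thus set mostly against dimmer probes. The median HFD difference was -0.16 in that range and -0.45 in the brightest range. In the range of Casq1 and Cacna1s probe 2, from 4 to 6, 1.40% and 8.31% of probes were lower. Sln had a higher difference than 99.97% of the probes between 2 and 4, and Casq2 than 99.91% of those between 0 and 2.

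**Figure D3:**
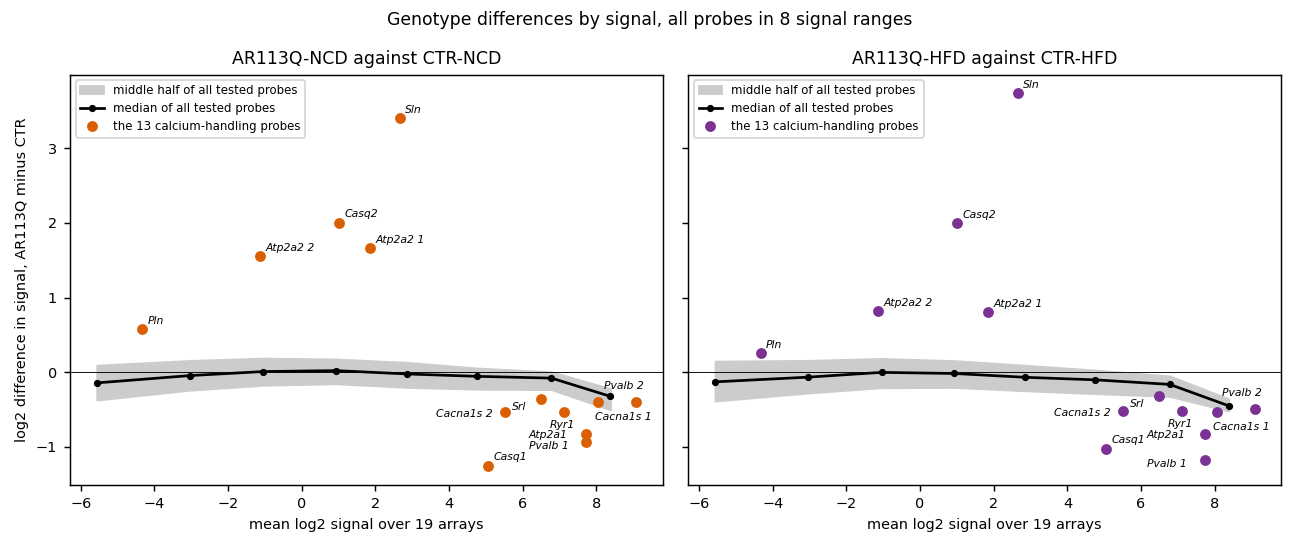
AR113Q minus CTR difference in log2 signal against the mean log2 signal over 19 arrays, on each diet, with the lower to upper quartile of all tested probes as a grey band, their median in 8 signal ranges as a black line and the 13 probes as points. The median of the brightest range lies at -0.32 on the NCD and -0.45 on the HFD, close to Pvalb probe 2 and Cacna1s probe 1, while Casq1, Atp2a1 and Pvalb probe 1 lie below the band and Sln and Casq2 far above it.

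Quantile normalization gives every array the same set of values. A fall shared by the brightest probes is thereby taken out whatever its origin, so this setting cannot show what part brightness has. On the HFD quantile normalization left Pvalb probe 2 at -0.05 (adjusted p = 0.543), Cacna1s probe 1 at -0.12 (adjusted p = 0.349) and Srl at -0.13 (adjusted p = 0.158), and these 3 calls were lost. Under the same setting Casq1 stood at -0.89, Pvalb probe 1 at -0.86, Atp2a1 at -0.55, Cacna1s probe 2 at -0.37 and Ryr1 at -0.31 (adjusted p = 0.049), each still called. Ryr1 lost its call with each array centred on its median (adjusted p = 0.0871), with normexp background correction (0.0586) and in the authors' table (0.149). Cacna1s probe 2 lost its call under median centring (0.0549), and Srl under all 4 of these settings. The authors' row with the name of Cacna1s probe 2 was not called either (-0.21, adjusted p = 0.0756). Its value lay between those of the 2 Cacna1s probes under quantile normalization, so it may not be that probe alone. Cacna1s probe 1 and Pvalb probe 2 also lost theirs with normexp, which was followed by quantile normalization. Sln stood at 3.80 and Casq2 at 1.99 under quantile normalization. Every called HFD difference of the 13 probes kept its direction under each alternative run, although other filters and separate fits leave the difference itself unchanged.

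No diet difference passed the test for these genes. In AR113Q mice the HFD minus NCD difference passed the test for none of the 13 probes, where 0.00312% of all probes were called higher and 0.0219% lower. By unadjusted p under 0.05, 1 of the 13 passed, Atp2a2 probe 2 at -1.31 (SE 0.59, unadjusted p = 0.0398, adjusted p = 0.727 by limma), and probe 1 stood beside it at -1.22 (SE 0.59, adjusted p = 0.746). The slow-fiber genes described below moved with it, with all 7 lower on the HFD at a median of -2.59, none called and 4 under an unadjusted p of 0.05, and their part in the Atp2a2 value was not tested. Sln was at 0.54 (SE 0.63, interval -0.80 to 1.88) and Pln at -0.50 (SE 0.31). In CTR mice none of the 13 passed by either p, and none of all 32026 probes passed the adjusted one, while 2775 did by unadjusted p. Sln was at 0.20 (SE 0.67) and Atp2a2 at -0.36 and -0.58 there. Both diet comparisons share arrays with the comparison that chose the genes.

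The difference between diets in the genotype effect was tested directly as an interaction. None of the 13 probes passed by adjusted or unadjusted p in limma, nor did any of all 32026 by adjusted p, with 1489 of them under an unadjusted p of 0.05. The estimate was 0.34 (interval -1.62 to 2.29) for Sln, -0.01 (interval -1.36 to 1.35) for Casq2 and 0.23 (interval -0.17 to 0.63) for Casq1. For Atp2a2 it was -0.85 (interval -2.67 to 0.96) with probe 1. These intervals leave room for sizeable differences between diets.

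Several of the genes vary with fiber type, so 7 slow-fiber genes (Myh7, Tnni1, Tnnt1, Tnnc1, Myl2, Myl3 and Tpm3) were averaged in each sample. On the NCD their mean log2 signal was 2.94 ± 1.52 (SD, n = 5) in CTR and 4.97 ± 0.40 (SD, n = 5) in AR113Q mice, and on the HFD 1.49 ± 2.58 (SD, n = 4) in CTR and 2.60 ± 1.98 (SD, n = 5) in AR113Q mice. CTR-HFD replicate 3, the sample with high Atp2a2 and Casq2, had a slow-fiber mean of 5.01, above the 3 other CTR-HFD samples, which spanned -0.90 to 1.71. No slow-fiber gene was called in either genotype comparison by limma. By unadjusted p under 0.05, 2 of 7 passed on the NCD and 0 on the HFD. Myh7, the slow myosin heavy chain, differed by 2.55 (SE 1.51, adjusted p = 0.296) on the NCD and 1.89 (SE 1.60, adjusted p = 0.490) on the HFD.

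As a description over 19 arrays that share groups and slides, deviations from the group mean were correlated with those of the slow-fiber mean. Atp2a2 followed it most closely, with r = 0.93 and 0.89 for probes 1 and 2. Pln gave r = 0.84 and Casq2 r = 0.75. Sln gave a lower value, r = 0.49. Negative values were given by Ryr1 (r = -0.68), Cacna1s (-0.35 and -0.58), Atp2a1 (-0.56), Casq1 (-0.55), Srl (-0.45) and Pvalb probe 1 (-0.41), whereas Pvalb probe 2 gave 0.01.

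**Figure D4:**
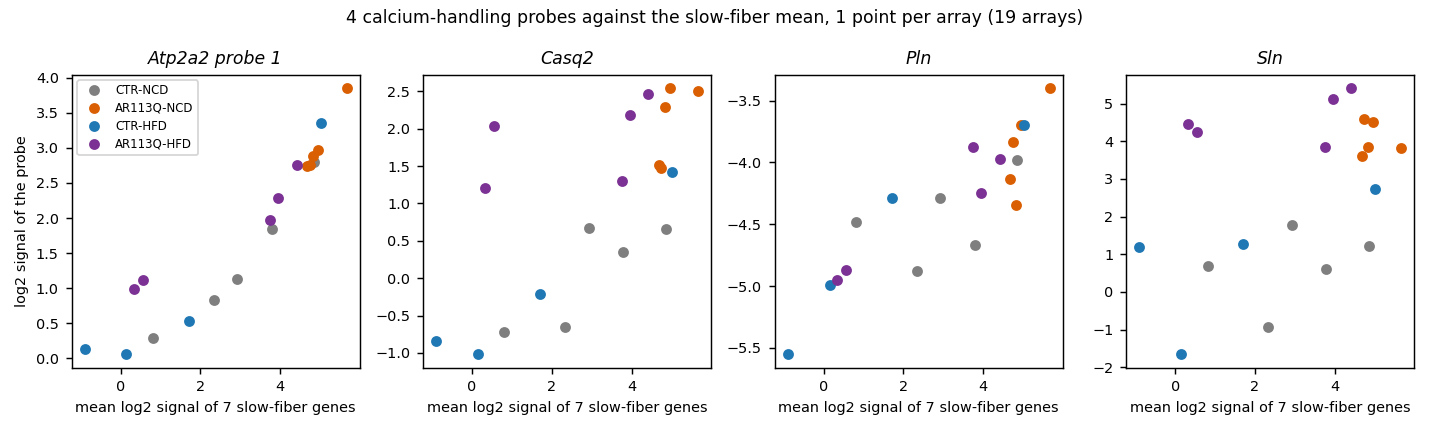
Log2 signal of Atp2a2 probe 1, Casq2, Pln and Sln in each of 19 samples against the mean log2 signal of 7 slow-fiber genes, coloured by group. Atp2a2 rises with the slow-fiber mean across all groups. For Sln all AR113Q samples lie above all CTR samples.

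In AR113Q-HFD replicates 2 and 3, which had the lowest slow-fiber means of their group, Sln read 4.25 and 4.46. CTR-HFD replicate 3 had the highest slow-fiber mean of the CTR samples and a Sln signal of 2.73, the highest of all CTR samples and below every AR113Q sample. Casq2 in those 2 AR113Q samples read 2.04 and 1.21 and Atp2a2 probe 1 1.12 and 0.98. The part of slow-fiber content in the differences of Sln, Casq2 and Atp2a2 was not tested.

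Of 8 fast-fiber genes, 6 were called lower on the NCD and 7 on the HFD, where 9.04% and 10.2% of all genes were. These genes are bright, and the mean log2 signal of the 8 genes ran from 7.51 to 8.23 over the 19 arrays. Of all probes between 6 and 8, 24% and 36.8% were called lower, and above 8, 74.5% and 90%, as given above. Actn3, which anchors actin in fast fibers, differed by -0.82 and -0.77, and Mylpf, a fast myosin light chain, by -0.50 and -0.50. Myh4, the myosin of the fastest fibers, was at -0.33 and -0.50, Myl1 at -0.39 and -0.50, Tnnt3 at -0.29 and -0.46 and Tnni2 at -0.29 and -0.42. Tnnc2 was at -0.25 (not called) and -0.38. Under quantile normalization Myh4, Tnnt3, Myl1, Tnni2 and Tnnc2 turned slightly positive on the NCD and Tnnc2 and Tnni2 on the HFD. Actn3 and Mylpf did not change direction. Myh1 was at 0.45 and 0.16, without passing the test. Within groups Pvalb probe 2 followed the fast-fiber mean (r = 0.82), but Pvalb probe 1 gave r = 0.10, Atp2a1 -0.08, Casq1 -0.14 and Ryr1 -0.52.

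A wider list of 50 genes of calcium handling, none of them in the list of 10, placed these values in their pathway. Strit1 has no probe on the array, and the other 49 were tested with their brightest probe. On the NCD 2 were called higher and 15 lower, where 8.31% and 9.04% of all 24741 genes tested were. On the HFD 3 were higher and 16 lower, where 7.74% and 10.2% of all genes were. The median difference of the 49 genes was -0.17 on the NCD and -0.16 on the HFD, and that of all genes -0.06 and -0.08. Of those lower, 6 passed the fold limit on the NCD and 1 on the HFD, where 2.03% and 1.92% of all genes did. The list was not matched for brightness, with which the share of all probes called lower rose, as given above. The shares of all genes also stand beside the counts by family below.

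Genes of the triad, the junction where transverse tubule and store meet, held the most calls. They were also the largest family of the list, so the number of calls alone does not set them apart. Of 11, 6 were called lower on the NCD and 8 on the HFD, and none higher, where 9.04% and 10.2% of all genes were called lower. Among all probes with a mean log2 signal between 4 and 6 the shares were 21.5% and 26.7%. Between 6 and 8 they were 24% and 36.8%. The triad count was not matched for brightness. The junctophilins, which tie the tubule to the store, fell most, with Jph2 at -1.14 (SE 0.16) on the NCD and -0.97 (SE 0.17, adjusted p = 0.000587 by limma) on the HFD, and Jph1 at -0.83 and -0.64. Asph, the locus of junctin, was at -0.62 and -0.54, and Trdn (triadin, which links calsequestrin to the release channel) at -0.31 and -0.33. Fkbp1a at -0.35, Ryr3 at -0.50 and Stac3 at -0.39 were called on the HFD, with -0.23, -0.37 and -0.29 (not called) on the NCD. Sypl2 was called at -0.32 on the NCD and stood at 0.10 (adjusted p = 0.596) on the HFD. Jsrp1, at -0.28 and -0.29, turned to 0.07 and 0.13 under quantile normalization. Ryr2, the heart release channel, stood at 0.60 and -0.60 and did not pass on either diet.

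The accessory subunits of the dihydropyridine receptor differed in part. Cacng6 was at -0.85 (SE 0.08) on the NCD and -0.57 (SE 0.09, adjusted p = 0.000239 by limma) on the HFD. Cacng1, the gamma subunit of skeletal muscle, was at -0.81 on the NCD and at -0.47 on the HFD, where it did not pass (adjusted p = 0.0942). Cacnb1 and Cacna2d1 lay between -0.14 and 0.02 and passed on neither diet.

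Among other pump regulators, myoregulin (Mrln), a micropeptide that inhibits SERCA as sarcolipin does, was at -0.94 (SE 0.17) on the NCD and -0.67 (SE 0.18, adjusted p = 0.0129 by limma) on the HFD, lower where Sln was higher. S100a1 was called higher on the NCD at 0.30 and stood at 0.24 (adjusted p = 0.108) on the HFD. Of 7 genes of the store's lumen and membrane, Hrc, a histidine-rich calcium-binding protein, was at -0.36 and -0.51 and Tmem38a, a potassium channel of the store, at -0.44 and -0.51, both called on both diets. On the HFD Hspa5, a chaperone, was called lower at -0.33 and Rcn1 higher at 0.41.

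Of 6 genes of calmodulin and its kinases, 3 were called lower on each diet and 1 higher on the HFD. Calm2 and Calm3, which encode the same calmodulin protein and were read by separate probes, were called lower on both diets, at -0.49 and -0.41 on the NCD and at -0.42 and -0.44 on the HFD. Camk2a was at -0.91 and -0.73, called on both diets, while Camk2d was at 0.28 and 0.42 and called higher on the HFD. Camk2b and Camk2g were called on neither diet. For store-operated entry 1 of 6 genes was called, Stim2 at -0.65 on the NCD, against -0.17 (adjusted p = 0.435) on the HFD. Of the 6 genes for extrusion across the plasma membrane none passed on either diet, and Slc8a1, the sodium-calcium exchanger with the widest difference, was at -0.44 and -0.49 (adjusted p = 0.0763 and 0.0591). Of 6 genes of mitochondrial uptake, Micu2, a regulator of the calcium uniporter, was called higher on both diets at 0.33 and 0.53, and Mcub was at -0.50 (adjusted p = 0.0790) on the NCD and -0.05 on the HFD.

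**Figure D5:**
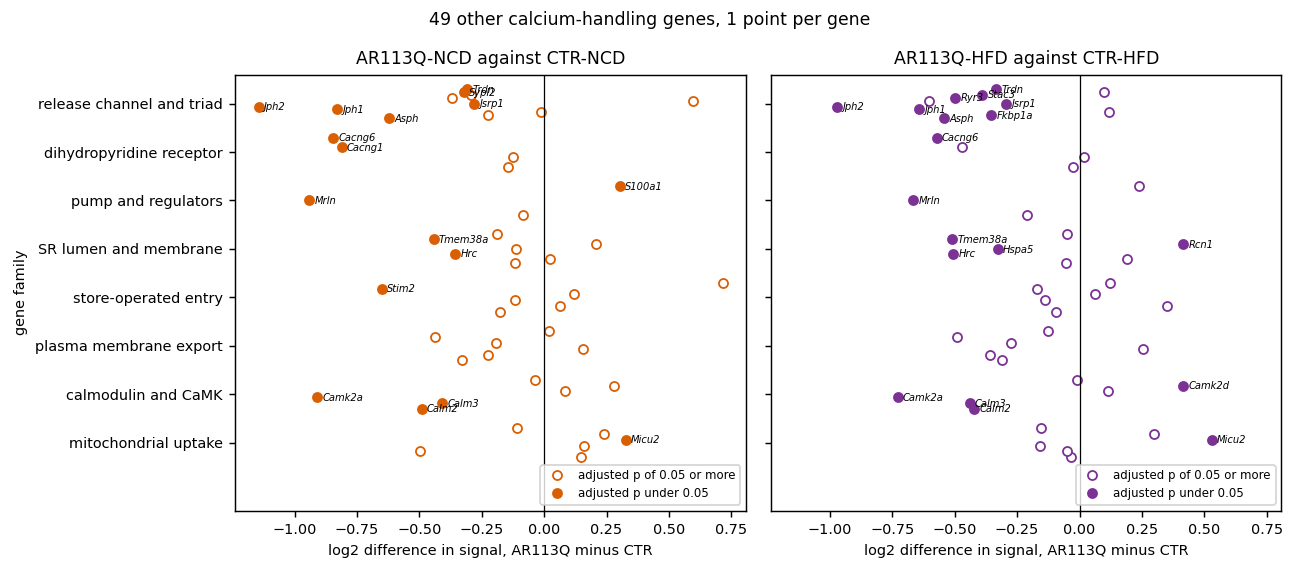
AR113Q minus CTR difference in log2 signal of 49 further calcium-handling genes by family on both diets, with filled points for an adjusted p under 0.05. Most filled points lie below 0 in the triad and calmodulin families, from Jph2 at -1.14 on the NCD upwards, and the filled points above 0 are S100a1, Rcn1, Camk2d and Micu2.

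The genes whose deviations from the group means were most like those of Sln over 19 arrays, among 24650 genes compared, were Strn4 (r = 0.90), Tmc6 (0.85), Rcan3 (0.84), Kcp (0.82) and Tead2 (0.81). For Atp2a2 they were 1500012K07Rik (0.98), Cyfip2 (0.97), Cdh22 (0.95), Lgi1 (0.94) and Ift81 (0.94). For Pvalb they were Gm5523 (0.90), Ndufa13 (0.90), Eno3 (0.90), Gapdh (0.89) and Tpm1 (0.89). Among the 10 genes, Atp2a2 probe 1 and Casq2 went together (r = 0.83), as did Atp2a1 and Cacna1s probe 2 (0.88), and Sln went with Casq2 (0.70) and against Casq1 (-0.77).

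The labelled tissue was checked against markers. Acta1, Ckm, Des, Myh4 and Actn3 were well above background on all 19 arrays. Of these Acta1, Ckm, Myh4 and Actn3 were called lower in AR113Q muscle on both diets. Of all genes 9.04% were called lower on the NCD and 10.2% on the HFD. The markers were not matched for brightness, and of all probes above 8, 74.5% and 90% were called lower. Under quantile normalization Myh4 turned to 0.068 on the NCD, whereas Actn3 did not change direction. Des was at -0.05 on the NCD and was called higher on the HFD at 0.32. Ckm was at -0.70 and -0.72 and Acta1 at -0.39 and -0.49. Sln, Casq2, Pln and Atp2a2 are also genes of the heart, and 4 cardiac markers (Myh6, Nppa, Tnni3 and Tnnt2) were therefore read. None was called on either diet or reached an unadjusted p under 0.05, and Myh6 differed by 1.07 and 0.64. Their summed linear signal, relative to the 75th percentile, lay between 1.03 and 2.98 in CTR and between 2.35 and 3.58 in AR113Q mice on the NCD, and between 0.529 and 3.03 in CTR and between 1.05 and 2.97 in AR113Q mice on the HFD.

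Markers of white adipocytes, Schwann cells, endothelium, immune cells and red blood cells had no gene called on either diet. For brown adipocytes, in which Elovl3 did not pass the filter on dim signals, neither Cidea nor Ucp1 was called but both reached an unadjusted p under 0.05 on the NCD, and their summed signal on the NCD ran from 0.537 to 1.39 in CTR mice and from 1.37 to 30.8 in AR113Q mice. The value of 30.8 belongs to AR113Q-NCD replicate 2 alone, and the other AR113Q-NCD samples reached 2.97. Of 4 smooth muscle genes, Smtn was called higher on both diets (0.28 and 0.41). Of 7 denervation genes 3 were called higher on the NCD and 4 on the HFD, where 8.31% and 7.74% of all genes were. Chrna1 was at 1.51 and 1.99, Musk at 0.79 and 1.22, Myog at 0.82 and 0.70 and Ncam1 at 0.43 (not called) and 0.91. Myh8 was called lower on the HFD at -0.37 and turned to 0.07 under quantile normalization. The part of these cells and of denervation in the differences of the 10 genes was not tested.

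Promoter sequences from RefSeq (GRCm38.p6, 250 bases before the start) were matched for 7 of the 10 genes, not for Sln, Atp2a2 and Srl. They are shown for the calsequestrins, which went opposite ways. Capitals mark the E-box CANNTG, bound by myogenic factors, the NFAT core GGAAA (read on the other strand as TTTCC) and AGAACA, an arm of the androgen receptor's palindromic element.
Casq1, chr1:172219896-172220145, minus strand: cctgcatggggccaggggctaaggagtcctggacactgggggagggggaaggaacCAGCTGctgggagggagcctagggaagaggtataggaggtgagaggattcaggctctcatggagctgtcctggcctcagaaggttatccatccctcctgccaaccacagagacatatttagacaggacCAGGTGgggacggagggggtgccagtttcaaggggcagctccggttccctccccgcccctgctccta
Casq2, chr3:102086165-102086414, plus strand: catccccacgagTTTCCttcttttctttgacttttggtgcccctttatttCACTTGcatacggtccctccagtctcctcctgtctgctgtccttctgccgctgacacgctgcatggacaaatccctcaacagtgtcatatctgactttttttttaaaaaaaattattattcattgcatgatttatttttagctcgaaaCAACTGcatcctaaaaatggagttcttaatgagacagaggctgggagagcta

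Both windows held 2 E-boxes, Casq2 also held 1 NFAT core and neither held the androgen receptor arm. Of 32851 promoters searched on both strands over the same length, 66.2% held an E-box, 55.6% an NFAT core and 16.1% the androgen receptor arm. Of the other genes, Pln held 1 E-box, 2 NFAT cores and 1 androgen receptor arm, Atp2a1 1 E-box, Cacna1s 2 E-boxes and Ryr1 none of the 3 motifs. Pvalb has 2 entries, of which 1 held an E-box. No matches of different motifs overlapped. These are matches of letters, and binding was not measured.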

How the data were processed

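RNA of 19 quadriceps samples was labelled with Cy3 and hybridised to 4x44K Agilent mouse arrays on 5 slides, each group being taken from the sample labels. The deposited intensities are the spot signals that Agilent Feature Extraction 10.7.3.1 gave the authors, with the local background subtracted and no normalization between arrays. The authors also deposited processed log2 values under 25944 probe names, among them 10 of the 13 described here. The Cacna1s and Pvalb rows there differed by -0.21 and -0.45 between genotypes on the HFD. Under quantile normalization the 2 probes stood at -0.12 and -0.37 for Cacna1s and at -0.86 and -0.05 for Pvalb. Whether such a row holds 1 probe or a mean over the probes of a gene is not known. The columns of that table follow the scanner values (r = 0.979 to 0.982 per array, column medians 7.59 to 7.65) and their normalization method is not given in the sources used here, so they served as an alternative.

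After removal of 2124 outlier spots over all arrays, log2 signals were averaged over the spots of each probe (43020 spots, 39429 probes), and each array's 75th percentile was subtracted. Probes with 0.5 or more of their spots well above background on 4 or more arrays were tested (32026 probes, 24741 genes). On each array 67.1% to 80.1% of probes were well above background, and the number of arrays limits the precision.

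The 4 groups were fitted jointly with limma 3.58.1 in R 4.3.3 (package data.table, version 1.17.8), with Benjamini-Hochberg adjustment over all probes and calls at an adjusted p under 0.05. Figures were drawn with Python 3.11.15 and matplotlib 3.10.9. On simulated data for the HFD genotype comparison (31907 probes, 200 of them changed), the fit recovered 66% of changes of 1 and 88% of changes of 2 on the log2 scale. Among the unchanged probes 8 were called. The noise was normal and independent, with each probe's own spread. It held no likeness within slides and no shift with brightness, so these rates may not hold for the real arrays.

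The 10 genes and all lists were chosen with earlier results of these data known. Named are all probes of the 10 genes, every gene of the wider lists called in a genotype comparison, the gene with the widest difference in each family, and the 5 genes most correlated with Sln, Atp2a2 and Pvalb. A pair of genes of the wider list is not reported here and was left out of its counts. A gene of several probes was represented by the brightest in lists. Alternatives were other scalings, background corrections and filters, the authors' table, slide or replicate number as a block, separate fits and leaving out each array.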

Additional observations from a re-analysis of the deposited data

Results flagged for a closer look

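Among the 52 groups of samples that the 13 probes form, 4 (7.69%) held a sample set apart from the rest of its group by Dixon's criterion, which chance meets in about 1 of 20 groups. Atp2a2 probe 1 read 3.86 in AR113Q-NCD replicate 3, with the other samples of that group between 2.74 and 2.97, and this sample also had the highest slow-fiber mean of its group (5.67). In CTR-HFD replicate 3, Atp2a2 probe 1 read 3.35 and Atp2a2 probe 2 read 0.21, against highest values of 0.53 and -2.52 in the 3 other samples, and its slow-fiber mean was 5.01 against at most 1.71. Pvalb probe 1 read 7.22 in CTR-NCD replicate 3, against 8.28 to 8.60 in the other samples, while Pvalb probe 2 read 9.26 there, within 9.20 to 9.41. Without that sample the NCD difference of Pvalb probe 1 was -1.17.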

How the results depend on the processing

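All called HFD differences of the 13 probes kept their direction under every alternative run (178 of 178 values), while 13 of these values lost the call. The 13 losses came under quantile normalization, median centring, normexp and the authors' table. Other filters and separate fits leave the difference itself unchanged, so its direction could not change there. Counts on the NCD, the comparison that chose the genes, are given as a description. Under quantile normalization the HFD comparison had 5 probes lower in place of 8, and the wider list had 4 genes higher in place of 2 on the NCD and 7 higher in place of 3 and 10 lower in place of 16 on the HFD. With each array centred on its median, 4 probes were lower on the NCD and 5 on the HFD, and the wider list had 0 genes higher and 7 lower on the NCD and 5 lower on the HFD. With normexp background correction and quantile normalization, 4 probes were higher on the NCD and 4 lower on the HFD, and the wider list had 4 higher on the NCD and 6 higher and 9 lower on the HFD. By the authors' processed values, 3 probes were lower on the HFD, and the wider list had 10 lower on the NCD and 8 on the HFD. Those values hold only 10 of the 13 probes and lack Cacna1s probe 1 and Pvalb probe 2, which were called lower in the main fit. With slide as a block the wider list had 4 higher on the NCD and 6 on the HFD, and with only the groups of the comparison 9 lower on the HFD. Over all probes, the share of higher among called ones on the HFD was 44.6%, against 56.7% under quantile normalization, 61.0% under median centring, 56.0% with normexp and 57.0% in the authors' table. The cause of these shifts was not tested.

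Called genes of the wider lists that changed direction were these. On the NCD under quantile normalization Myh4 was at 0.068, Tnnt3 at 0.066, Myl1 at 0.011, Jsrp1 at 0.066 and Tnni2 at 3.5e-05, with normexp Myh4 at 0.029, Tnnt3 at 0.038, Myl1 at 0.013, Jsrp1 at 0.12 and Tnni2 at 0.070, and by the authors' values Myh4 at 0.025, Myl1 at 0.011, Jsrp1 at 0.14 and Tnni2 at 0.066. On the HFD under quantile normalization Myh8 was at 0.069, Tnnc2 at 0.040, Jsrp1 at 0.13 and Tnni2 at 5.0e-06, with normexp Myh8 at 0.0031, Tnnc2 at 0.028, Jsrp1 at 0.17 and Tnni2 at 0.036, and by the authors' values Tnnc2 at 0.029, Myl1 at 0.0021, Jsrp1 at 0.18 and Tnni2 at 0.042.

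With the replicate number as a block, 2 probes were higher and 8 lower on both diets, and the wider list had 5 genes higher on the HFD in place of 3. Of 27 pairs of samples with the same number, 19 correlated over 0.1 in their deviations (lowest -0.21, median 0.237), against 27 of 108 pairs with different numbers (median -0.0851). The main fit did not pair the samples by number, although same-numbered samples were more alike. That not every pair was over 0.1 does not show the number to be without effect. The number is also the slide for all samples but CTR-HFD replicate 4. The main fit and its p-values leave this likeness out. With slide as a block 3154 of all probes were called higher and 5806 lower on the HFD, against 2562 and 3179 in the main fit. When each array was left out in turn, 2 to 4 probes were higher and 8 lower on each diet, with 4 higher without CTR-NCD replicate 2 on the NCD or without CTR-HFD replicate 3 on the HFD, in each case by the addition of both Atp2a2 probes (2.01 and 1.91 on the NCD, 1.58 and 1.57 on the HFD). The wider list ranged from 1 to 3 genes higher and 11 to 15 lower on the NCD (1 higher without CTR-NCD replicate 4, AR113Q-NCD replicate 1 or AR113Q-NCD replicate 3) and from 3 to 4 higher and 11 to 18 lower on the HFD, and the diet comparisons and the interaction stayed at 0 of the 13 probes.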
